A study of Mus musculus with 13 samples.

Results

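The control IgG reactions of a CUT&RUN experiment in mouse embryonic fibroblasts gave 6 lists of peaks, of 13 lists in the series, and all 6 were taken, with every sequence they name. CUT&RUN tethers a nuclease to an antibody in permeabilised nuclei, so that chromatin is cut and released where the antibody sits. With an IgG that has no target in the nucleus, the nuclease is not directed to a factor, and what is released is the background of the assay: open chromatin, places that are cut or recovered easily, and sequences present in more copies in the cell than in the assembly. The labels name the IgG as the isotype or negative control.

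The fibroblasts carried Pax7-CreERT2, Rosa26-LSL-tdTomato and CAG-rtTA3 and were transduced with a lentivirus for doxycycline-inducible Myf6 with an HA tag. Myf6 is a myogenic transcription factor. All cells spent 24 h in iMPC medium, with no doxycycline in the first treatment (2 IgG libraries) and with 2 µg/mL doxycycline in the second (+Myf6, 2 IgG libraries). The third (+Myf6+F/R/C, 2 IgG libraries) added to the doxycycline Forskolin, an activator of adenylyl cyclase, at 5 µM, RepSox, an inhibitor of TGF-β receptor signalling, at 5 µM, and CHIR99021, an inhibitor of GSK3, at 3 µM. Each IgG reaction was divided from the same nuclei as an HA reaction, and 1 H3K27me3 reaction came from +Myf6+F/R/C cells. Peak lists carry no expression values, so the labelled cell type was not checked against markers, and the labels do not say whether replicates were separate cultures.

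The lists held 5850 peaks in all and ran from 504 to 1769 peaks. There were 570 and 849 peaks without doxycycline, 504 and 1122 with Myf6, and 1036 and 1769 with Myf6 and the compounds (replicates 1 and 2). The second replicate had the longer list in each treatment. Depth was recovered from the deposited fold and p-value of each peak, as the mean number of fragments per 10 kb of genome. It was 22.7 and 18.0 without doxycycline, 13.6 and 14.7 with Myf6, and 19.1 and 8.25 with Myf6 and the compounds. The longest list thus came from the shallowest library. Over the 6 HA libraries the same measure ran from 23.7 to 61.9, and it was 54.3 in the H3K27me3 library.

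The 6 lists merged into 3305 regions when intervals sharing at least 1 bp were joined, and these regions fell mainly into 2 classes. A single list held 2571 of them (77.8%), and all 6 lists held 303 (9.17%). The classes between were small, with 189 regions in 2 lists, 90 in 3, 65 in 4 and 87 in 5. By peaks the balance was different, since the 303 shared regions took 33.0% of all peaks and the single-list regions 43.9%.

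The number of regions private to 1 library ran from 37 to 1266, while the 303 shared regions are in every library by definition. Without doxycycline 48 and 290 regions were found in that library alone, with Myf6 37 and 558, and with Myf6 and the compounds 372 and 1266. In the second +Myf6+F/R/C library these made up 71.9% of its regions, and in the first +Myf6 library 7.76%. Without the second +Myf6+F/R/C library, single-list regions over the other 5 lists numbered 1362.

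**Figure D1:**
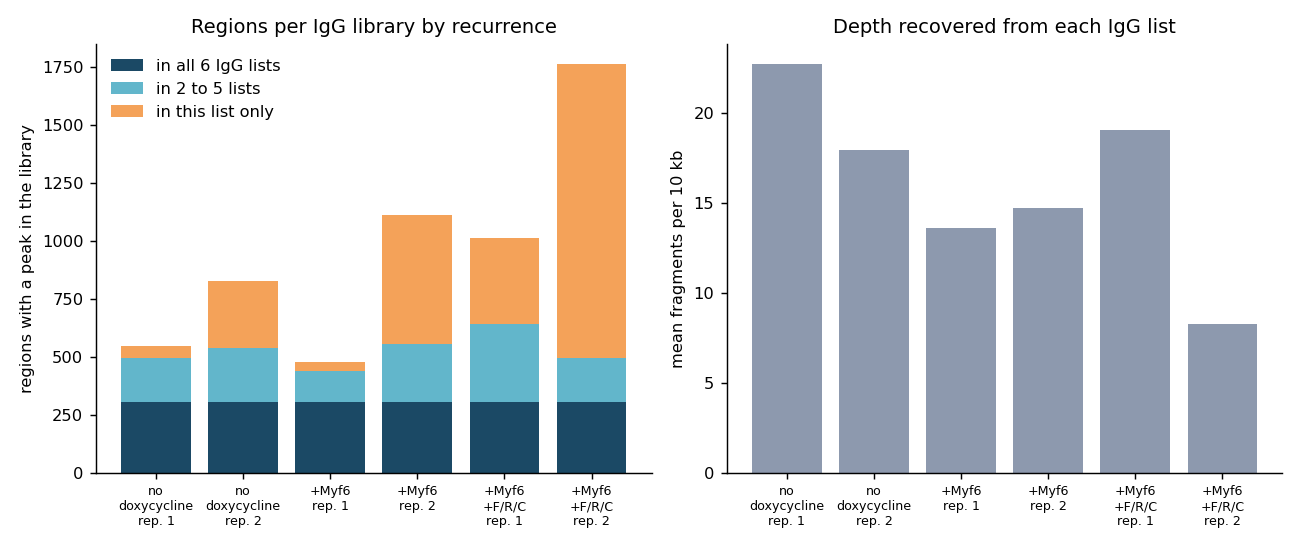
Left, number of merged IgG regions with a peak in each of the 6 IgG libraries (y axis), divided into regions in all 6 lists, in 2 to 5 lists and in that list only. Right, mean fragments per 10 kb recovered from each list. The base of 303 shared regions is the same in each library by definition. Private regions run from 37 to 1266, with the most in the library at 8.25 fragments per 10 kb.

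The shared regions were higher and wider than the private ones in every library. The summit pileup is the number of fragments that overlap the summit. At the 303 shared regions its median was 26 and 24 without doxycycline, 22 and 27 with Myf6, and 29 and 21 with Myf6 and the compounds, so the 6 medians lay close together. At single-list regions the medians were 8 and 6, 6 and 6, and 6 and 4 in the same order. Relative to the mean background of the library, the shared median ran from 104 times in the first library without doxycycline to 153 times in the second +Myf6+F/R/C library.

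Widths separated the classes in the same way. The median width of a peak at a shared region was 216 and 222.5 bp without doxycycline, 203 and 287.5 bp with Myf6, and 217 and 289 bp with Myf6 and the compounds. At single-list regions it was 111, 117, 114, 162, 104 and 166 bp, in the same order. This is within 1 bp of the fragment length of each library, which was taken as the width of its narrowest peak. Between 54.2% and 79.1% of the single-list regions of a library were within 2 bp of this minimum. After merging, the widest single-list region spanned 520 bp and the widest shared region, chr1:24650704-24655211, 4508 bp. Next came chr2:22477252-22480531 with 3280 bp. Its pileups were 56 and 51 without doxycycline, 59 and 67 with Myf6, and 85 and 76 with Myf6 and the compounds. In both regions, pileups without doxycycline lay below those of every library with Myf6, but the folds were not ordered in this way. At chr14:3050715-3053966, which followed with 3252 bp, pileups without doxycycline lay above the rest. The part of fragment length in these differences was not tested.

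**Figure D2:**
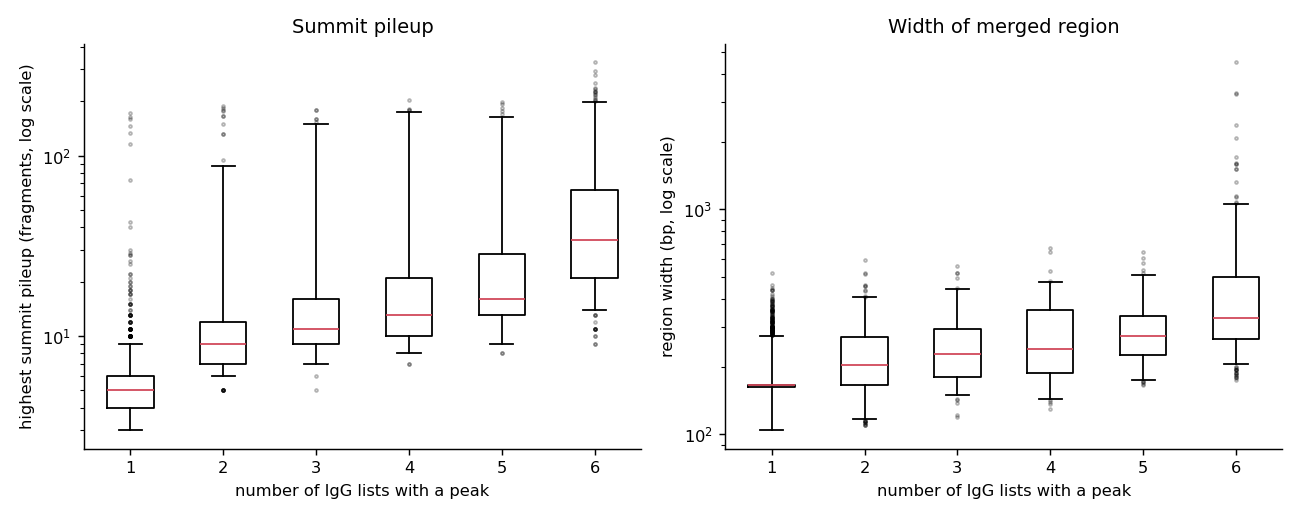
Highest summit pileup (left, fragments) and width (right, bp) of merged IgG regions on log axes, by the number of IgG lists with a peak there; boxes give quartiles with the median, whiskers the 5th and 95th percentiles, and points the regions beyond them. Median pileup goes from 5 at 1 list to 34 at 6 lists and median width from 166 to 328 bp; a maximum over more lists is higher by construction, so the medians within a library stand in the text.

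Most of the shared regions lay at the same place in each library. In 269 of the 303, every list had exactly 1 peak. The summits of the 6 lists spanned a median of 37 bp (quartiles 19 and 73 bp), which is less than any library's fragment length. Across the 303 regions, the summit pileups of any pair of lists had a Spearman rho from 0.83 to 0.95 over the 15 pairs. Regions are not independent replicates, several adjoin each other, and the rho is given as a description.

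Summit pileups had an upper limit set by the fragment length. The highest pileup was 220 and 234 without doxycycline, 228 and 321 with Myf6, and 208 and 328 with Myf6 and the compounds. These are 1.98 to 2.00 times the fragment lengths of 110, 117, 114, 162, 104 and 166 bp. A pileup of 2 fragments for each base of fragment length is the most that can be reached when each start position and strand is kept once. The setting for duplicate reads is not given in the sources used here. In 16 shared regions the summit stood at 50% or more of this limit in all 6 lists.

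The region with the highest fold in every list was chr6:103625962-103626333 (GRCm39, 372 bp). The fold is the authors' deposited ratio of summit pileup to the expected pileup, and the expected pileup followed the library's own 10 kb window. It was 47.8 and 49.5 without doxycycline, 48.8 and 41.6 with Myf6, and 47.4 and 41.1 with Myf6 and the compounds. The pileups of 206, 214, 208, 228, 189 and 214 were near the limit in the 4 libraries with short fragments. The lower folds were those of the 2 libraries with the longest fragments.

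The next by mean rank was chr12:3159777-3160210, the first region of its chromosome with a peak in any list. Its folds were 37.4 and 40.1 without doxycycline, 39.2 and 34.1 with Myf6, and 36.7 and 35.2 with Myf6 and the compounds. The pileups were 220, 232, 227, 252, 208 and 252. The pileups of the treatments overlapped, while both +Myf6+F/R/C folds lay below both without doxycycline. Among the 10 shared regions with the best mean rank, this was so at the chromosome 6 region and chr8:84483364-84483710 too. It was not so at the others.

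Of the 10 shared regions with the best mean rank, most had pileups far from the limit. At chr9:24453231-24453582 they were 81, 78, 76, 71, 81 and 54. At chrX:142265912-142266213 they were 79, 62, 67, 60, 74 and 48. In both, the second +Myf6+F/R/C library, the shallowest, was the lowest. Further members were chr4:70296242-70296589, chr16:93586008-93586300 and chr8:84483364-84483710, with folds from 23.4 to 38.3. At chr9:35216433-35216981 the pileups of 217, 225, 224, 279, 205 and 280 were again near the limit, and the folds were 26.6 to 29.8. All 10 regions also had a peak in the H3K27me3 list and in each of the 6 HA lists. Most shared regions did as well, with an H3K27me3 peak at 262 of 303 (86.5%) and a peak in all 4 HA lists with Myf6 at 263 (86.8%).

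The highest pileups were not the highest folds. The following places were picked after their values were seen. At chr2:98496586-98497730 the pileups were 220, 234, 228, 321, 208 and 328, the highest of every list, but the folds were only 5.14, 5.67, 5.62, 5.94, 5.33 and 6.39. Its 10 kb window held 3819 and 3457 fragments without doxycycline, 3484 and 3286 with Myf6, and 3677 and 3039 with Myf6 and the compounds. At chr9:3000038-3001550 the pileups were 212, 208, 206, 233, 197 and 220, with folds from 3.45 to 4.41. A fold over a window that is itself dense understates such regions.

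**Figure D3:**
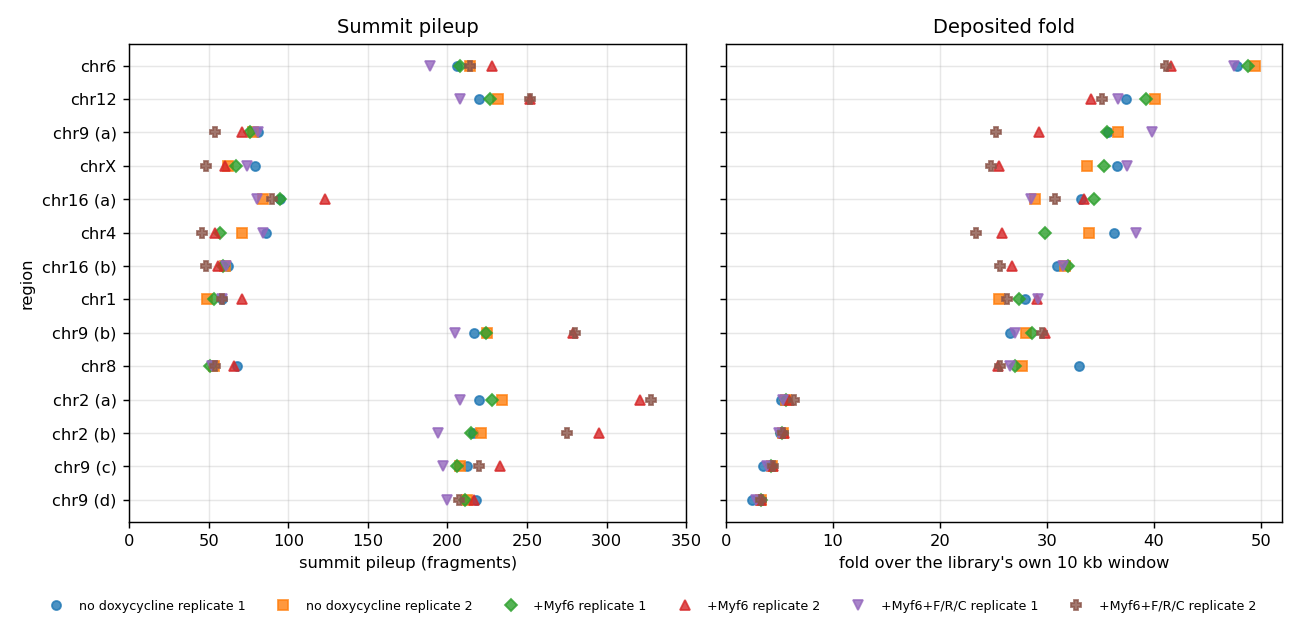
Summit pileup in fragments (left) and deposited fold over the library's own 10 kb window (right) for 14 regions found in all 6 IgG lists, 1 symbol per library; the upper 10 rank highest by fold and the lower 4 are further regions with the highest pileups, chosen after their values were seen. Letters tell regions of one chromosome apart, from top to bottom. The chr2 (a) region reaches 328 fragments at folds of 5.14 to 6.39, and the chr6 region has the highest fold in each library.

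The densest windows carried a large excess of fragments. The densest 10 kb window beneath a peak held 9107 and 6296 fragments without doxycycline, 7152 and 7175 with Myf6, and 9017 and 7110 with Myf6 and the compounds. That is 401, 350, 525, 487, 473 and 862 times the mean of the library. The highest ratio was that of the shallowest library. The window of a typical shared region was far less dense, with a median of 2.68 to 4.85 times the mean over the 6 libraries.

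Shared regions were crowded on chromosome 9. It held 45 of them, or 3.71 per 10 Mb, where the median autosome had 1.01 and the lowest, chromosome 15, had 0.298. Of 268 shared regions on chromosomes 1 to 19, X and Y, 26 formed 3 clusters of at least 3 regions no more than 50 kb apart. The first cluster, chr9:3000038-3038265, held 19 regions in 38.2 kb at the start of the assembled chromosome, with pileups up to 233. The second, chr9:124254647-124259226, held 4 regions in 4.58 kb at the other end of the same chromosome, with pileups up to 109. The third, chr2:98492531-98497730, held 3 regions in 5.20 kb.

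Single-list regions were spread more evenly. Per 10 Mb they ran from 8.10 on chromosome 1 to 13.3 on chromosome 11, with an autosome median of 10.0. Chromosome X had 83 of them, or 5.00 per 10 Mb, and 12 shared regions, or 0.722 per 10 Mb. Chromosome Y had 14 IgG regions in all, of which 7 were in a single list and 1 was in all 6. Both chromosomes stood below every autosome for single-list regions. The sex of the embryos is not given in the labels.

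Chromosome ends held a larger part of the shared regions than of the private ones. Mouse chromosomes are telocentric, so that an assembled chromosome begins beside the centromere and ends beside the telomere, both made of repeats. Without chromosome lengths of the build, an end was taken as the outermost peak of any of the 13 lists. Within 1 Mb of an end lay 57 of 268 shared regions (21.3%, 95% Clopper-Pearson interval 16.5% to 26.7%) and 79 of 2550 single-list regions (3.10%, 2.46% to 3.85%). The intervals do not overlap, but they cover counting error only and treat regions as independent. Of the 57, 19 lay in the cluster at the start of chromosome 9, so the intervals are a description. These margins make up 1.58% of the span of the 21 chromosomes.

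The start and the end of the chromosomes differed in how the shared regions were distributed. Near the start there were 30, of which 19 lay in the cluster on chromosome 9 and 11 elsewhere. Near the end there were 27, on 16 chromosomes, with 9 on chromosome 9. On 15 of 21 chromosomes a shared IgG region lay within 1 kb of the last peak of any list, and on 5 within 1 kb of the first peak. Some of these regions were themselves the outermost peak, such as chr1:195053958-195054331 and chr16:97908603-97908993, so the counts are a description only.

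The 15 distal regions were 239 to 685 bp wide. Over all 303 shared regions, 262 (86.5%) overlapped an H3K27me3 peak and 263 (86.8%) had a peak in all 4 HA lists with Myf6. Of the distal regions, 14 overlapped an H3K27me3 peak and 14 had a peak in all 6 HA lists. Their median pileup was 57 and 49 without doxycycline, 46 and 71 with Myf6, and 56 and 53 with Myf6 and the compounds, so the treatments overlapped. On chromosome 1, chr1:195053958-195054331 had pileups of 58, 49, 53, 71, 58 and 58 and folds of 25.5 to 29.2. On chromosome 16, chr16:97908603-97908993 had pileups of 95, 84, 95, 123, 80 and 90. The weakest, chr5:151657971-151658209, had 15, 14, 13, 16, 14 and 11, with folds of 9.74 to 12.7, and was the one without an H3K27me3 peak. The second +Myf6 library was the highest in each of these 3 examples, but not at the distal regions of chromosomes 10, 11 and 13. Its fragments, of 162 bp, were longer than in most libraries. The second +Myf6+F/R/C library, with 166 bp, had pileups of 58, 90 and 11 at the 3 examples. The part of fragment length was not tested.

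The 5 proximal regions varied more. Their pileups ran from 15 to 220 in the first library without doxycycline. At chr14:3050715-3053966, among the widest of all regions with 3252 bp, they were 205, 189, 187, 181, 185 and 168. At chr2:3050682-3051375 they were only 15, 16, 12, 13, 20 and 13. All 5 overlapped an H3K27me3 peak and a peak of each HA list, where 86.5% of all 303 shared regions overlapped an H3K27me3 peak.

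Sequences not placed on a chromosome carried IgG peaks in each library. These are assembled pieces, often repeat-rich, without a known position. Of the 15 sequences with a peak, 4 are assigned by name to a chromosome but not placed on it. They held 71 and 67 peaks without doxycycline, 63 and 47 with Myf6, and 79 and 40 with Myf6 and the compounds. As a share of the list this was 12.5% and 7.89%, 12.5% and 4.19%, and 7.63% and 2.26%. The number varied less than the length of the list, so the share was lowest in the longest list.

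A peak in every library was found on 9 of the 15. The 91 merged regions included 33 in all 6 lists and 20 in a single list. The sequence chrUn_JH584304v1 alone had 166 of the peaks, with 32, 32, 28, 23, 34 and 17 over the libraries, 17 shared regions and pileups up to 199. It was followed by chrUn_GL456390v1 with 44 peaks and chrUn_MU069435v1 with 29. The 6 sequences without a peak in every library had 1 or 2 peaks each.

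The mitochondrial genome, which has no nucleosomes and is present in many copies per cell, had 3 to 5 peaks per list. There, 2 intervals were shared by all libraries. The first covered bases 64 to 1648, where the ribosomal RNA genes lie, with pileups of 113 and 116 without doxycycline, 114 and 176 with Myf6, and 144 and 159 with Myf6 and the compounds. The second covered bases 14152 to 16219, which hold Cytb and the control region, with pileups of 126 and 131, 147 and 193, and 161 and 184. In the second interval both libraries without doxycycline were below the other 4. The second +Myf6 and second +Myf6+F/R/C libraries, which were highest, had longer fragments and so a higher limit. The first +Myf6 and first +Myf6+F/R/C libraries had fragments of 114 and 104 bp, against 110 and 117 bp without doxycycline. The part of fragment length in this difference was not tested.

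**Figure D4:**
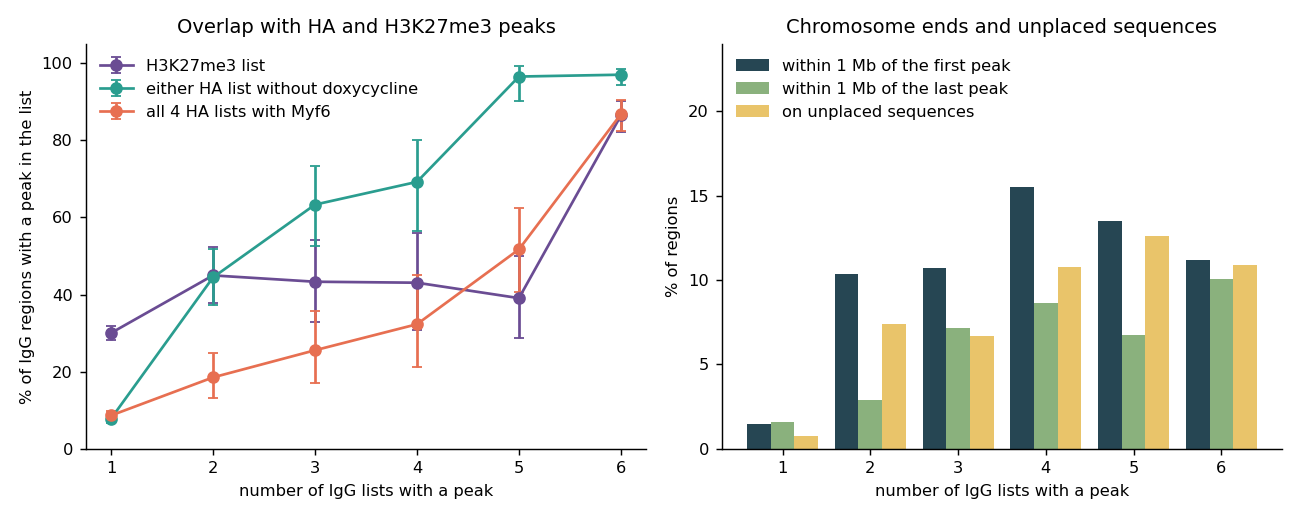
Left, percentage of merged IgG regions that share at least 1 bp with a peak of the H3K27me3 list, of either HA list without doxycycline, or of all 4 HA lists with Myf6, by the number of IgG lists with a peak; bars are 95% Clopper-Pearson intervals. Right, percentage of regions on unplaced sequences (of all regions) and within 1 Mb of the first or last peak of a chromosome (of placed regions); the share near any end is 3.10% at 1 list and 21.3% at 6 lists.

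The shared IgG regions were nearly all present in the antibody libraries too. Of 303, 294 (97.0%) overlapped a peak of at least 1 HA list without doxycycline, where no tagged Myf6 was induced, and 263 (86.8%) had a peak in all 4 HA lists with Myf6. A peak in at least 1 of the 6 HA lists was found at 302 of them. Of the single-list regions, 201 (7.82%) overlapped an HA peak without doxycycline and 222 (8.63%) a peak in all 4 lists with Myf6. HA and IgG reactions shared nuclei, and the HA libraries were deeper, so that their lists are not independent of the IgG lists.

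H3K27me3, the histone mark of Polycomb-repressed chromatin, had a peak at 262 of the 303 shared regions (86.5%, interval 82.1% to 90.1%). At single-list regions the number was 772 of 2571 (30.0%, 28.3% to 31.8%). Regions in 2 to 5 lists lay between, and their share was lower with each added list (45.0%, 43.3%, 43.1% and 39.1%), with intervals that overlap. When at least 50% of the region had to be covered, the shares were 81.2% and 27.1%. The shared regions were in the HA lists as well, and the part of assay background in this overlap was not tested.

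Single-list regions differed between libraries in this overlap. The share with an H3K27me3 peak was 12.5% and 40.0% without doxycycline, 32.4% and 47.8% with Myf6, and 45.2% and 16.0% with Myf6 and the compounds. The share with a peak in the HA list of the same nuclei was 20.8% and 11.4%, 27.03% and 36.7%, and 37.6% and 11.5%. These HA lists differ in length, with 2265 and 4316 peaks without doxycycline and 28514 to 38532 in the other 4. Against the HA lists of the +Myf6 cells, the private regions of the second library without doxycycline had shares of 24.8% and 28.3%. Among the 4 induced libraries, the second +Myf6 and the first +Myf6+F/R/C library were highest in both measures, and the second +Myf6+F/R/C library was lowest in both. The private regions of the second +Myf6+F/R/C library also had the lowest median pileup, 4 fragments, and the smallest share with a −log10 q of at least 5 (q being the deposited p-value adjusted over the list), which was 4.82% against 15.4% to 47.9% in the other 5.

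A few private regions were high. Of the 2571, 7 had a pileup of 50 or more, and each of these lay within 10 kb of a shared region. They were on chromosome 9 in the clusters at its ends (171, 159 and 73 fragments), on the mitochondrial genome (146) and on chrUn_JH584304v1 (116, 164 and 133). The private regions with the highest fold in each list stood elsewhere, and their folds were far under those of the leading shared regions. They were chr12:40943652-40943770 with 9.39 and chr2:166283741-166283930 with 9.54 without doxycycline, and chr1:58653050-58653182 with 8.22 and chr8:19834707-19834939 with 9.61 with Myf6. With Myf6 and the compounds they were chr9:30187857-30188024 with 11.0 and chr12:36186004-36186293 with 9.17.

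Few regions were found in the lists of 1 treatment alone. A peak in both lists of a treatment and in no other IgG list was found at 9 regions without doxycycline, 3 with Myf6 and 20 with Myf6 and the compounds. When both peaks had to reach a −log10 q of 5, the numbers were 5, 2 and 7. In contrast, 303 of the 418, 379 and 443 regions in both lists of a treatment (72.5%, 79.9% and 68.4%) were shared by all 6 lists. The converse, a peak in all 4 other lists and none in the treatment, occurred at 5, 3 and 1 regions.

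Most treatment-only regions were of low height, but 3 of the 32 were not. Their median highest pileup was 15, 12 and 8.5 fragments in the 3 treatments. Pileups of 50 or more, within 10 kb of a shared region, were found at 2 of 9 regions without doxycycline and at 1 of 20 with Myf6 and the compounds. Those without doxycycline were on chrUn_JH584304v1 (187 and 149 fragments) and at chr9:3025011-3025145 (184 and 159), with folds of only 1.94 to 2.64. The third was the mitochondrial interval of bases 2322 to 2509 (141 and 165). The other regions reached at most 20, 13 and 16 fragments in the 3 treatments. These 3 regions were picked out after their values were seen. Without doxycycline the best ranked was chr9:74024824-74024978, with pileups of 13 and 10 and folds of 10.1 and 7.74. With Myf6 it was chr7:44498114-44498281, with 9 and 13 fragments, folds of 7.45 and 8.41 and an H3K27me3 peak. With Myf6 and the compounds it was chr6:128805909-128806081, with 10 and 9 fragments, folds of 9.11 and 7.90, and a peak in H3K27me3 and all 6 HA lists. Next there was chr8:7700507-7700705, with 16 and 6 fragments, without an H3K27me3 peak and with a peak in 1 HA list. The lowest summit pileup of a list was 5 and 4 fragments without doxycycline, 4 and 4 with Myf6, and 4 and 3 with Myf6 and the compounds. Whether a treatment-only region lay just under the threshold of the other lists was not tested.

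The number of peaks was highest with Myf6 and the compounds, but no difference between treatments could pass a test. With 2 libraries against 2, the smallest p of the two-sided exact permutation test is 0.33, and 9 comparisons were adjusted together (Benjamini-Hochberg). Means were 710 ± 197 peaks without doxycycline, 813 ± 437 with Myf6 and 1403 ± 518 with Myf6 and the compounds (SD, n = 2 each). The last was 1.98 times the first, with both of its libraries above both of the others (exact permutation p = 0.33, adjusted 0.75). This separation was lost among peaks with a −log10 q of at least 5, of which there were 509 and 544 without doxycycline and 698 and 439 with Myf6 and the compounds (log2 ratio 0.11 in place of 0.98). The +Myf6+F/R/C mean was 1.73 times the +Myf6 mean, with overlap (exact p = 0.667, adjusted 0.857). On the log2 scale this ratio was 0.79, and it became 1.48 without the second +Myf6 library and 0.21 with a −log10 q of at least 5. The +Myf6 mean was 1.15 times that without doxycycline (exact p = 1.0), and the ratio was 0.884 in replicate 1 and 1.32 in replicate 2. Its log2 value of 0.20 turned to −0.49 without the second +Myf6 library.

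Depth was separated only between +Myf6 and no doxycycline. It was 20.4 ± 3.36 fragments per 10 kb without doxycycline, 14.2 ± 0.779 with Myf6 and 13.7 ± 7.66 with Myf6 and the compounds (SD, n = 2 each). Both +Myf6 libraries were below both without doxycycline (log2 ratio −0.52, exact permutation p = 0.33, adjusted 0.75). The first +Myf6+F/R/C library was deeper than all but the first library without doxycycline, the second was the shallowest, and the log2 ratio to no doxycycline was −0.57 (exact p = 0.667), or −1.30 without the first +Myf6+F/R/C library. When every list was scaled to 8.25 fragments per 10 kb, a computation chosen after seeing the data, 529, 713, 497, 1016, 876 and 1769 peaks were left. Such scaling can only remove peaks that were already called, so it could not shorten the list of the shallowest library. The part of depth in the peak counts was not tested.

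Peak widths were largest with Myf6, in a comparison that could not pass the test either. The median width of a list was 170 and 155 bp without doxycycline, 172 and 193 bp with Myf6, and 146 and 166 bp with Myf6 and the compounds. Both +Myf6 libraries were above both of either other treatment (log2 ratio 0.17 over no doxycycline, and −0.23 for +Myf6+F/R/C over +Myf6; exact permutation p = 0.33 and adjusted 0.75 in each). Among peaks with a −log10 q of at least 5, these log2 ratios were 0.28 and −0.031, and neither separation remained. The shortest possible width, the fragment length, was 162 and 166 bp in the second +Myf6 and second +Myf6+F/R/C libraries and 104 to 117 bp in the other 4. Peaks within 2 bp of this minimum were 14.2% and 30.2%, 13.3% and 35.6%, and 26.1% and 60.7% of the lists.

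Across the 6 libraries, neither depth nor fragment length had a relation to the number of peaks that passed the test. For depth, Pearson's r was −0.69 (exact permutation p = 0.117, adjusted 0.117) and Spearman's rho −0.37 (exact p = 0.497, adjusted 0.497). For fragment length, r was 0.77 (exact p = 0.0653, adjusted 0.117) and rho 0.60 (exact p = 0.242, adjusted 0.483). Without the 2 libraries farthest from the median of the x axis, r turned to 0.47 and −0.47. The second +Myf6+F/R/C library is among those left out each time. For fragment length, those left out were the only libraries with long fragments, of 162 and 166 bp. The rest ran from 104 to 117 bp, so this r cannot tell whether the relation holds over the full range. These 2 relations were chosen after seeing the data, and 3 libraries per replicate number are too few to repeat them within replicates.

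**Figure D5:**
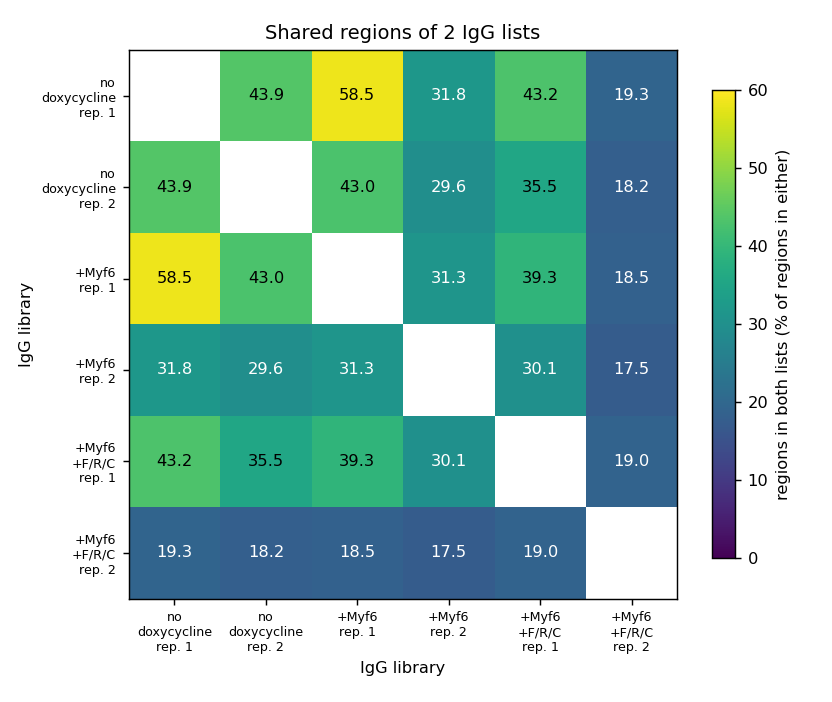
Regions in both of 2 IgG lists as a percentage of regions in either, for each pair of the 6 IgG libraries (rows and columns; colour scale in percent). Pairs of one treatment have 43.9%, 31.3% and 19.01%, within the 17.5% to 58.5% of the other pairs, and the row of the second +Myf6+F/R/C library is the lowest.

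Lists of the same treatment were, on average, not more alike than lists of different treatments. The share of regions in common, out of those in either list, was 43.9% without doxycycline, 31.3% with Myf6 and 19.01% with Myf6 and the compounds. The mean was 31.4 ± 12.4% over these 3 pairs and 32.1 ± 12.7% over the 12 pairs of different treatments, a difference of −0.64 percentage points. The exact permutation test over the 15 ways to divide the libraries into pairs gave p = 1.0, and 0.0667 is the smallest it can give. Pairs share libraries, so their SD is only a description. The highest overlap, 58.5%, was between the first libraries without doxycycline and with Myf6, which had the 2 shortest lists. The lowest, 17.5%, was between the second +Myf6 and second +Myf6+F/R/C libraries, which had the 2 longest.

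Lists with the same replicate number had a slightly higher mean overlap, in a test that could not reach 0.05 either. Library names in the labels begin alike in every second replicate. Among first replicates, the +Myf6 and +Myf6+F/R/C names begin alike and those without doxycycline differently. What this stands for is not stated. It cannot be told apart from replicate number or, among first replicates, from doxycycline. Pairs with the same number had 34.4 ± 15.8% of regions in common (n = 6 pairs) and pairs with different numbers 30.3 ± 9.78% (n = 9 pairs; exact permutation p = 0.2, smallest possible 0.1). A peak in all 3 first replicates and no second replicate was found at 6 regions, and the reverse at 7.

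Equal list lengths changed the count of private regions far more than that of shared ones. With the 504 strongest peaks of each list by −log10 p, 950 regions were obtained, of which 270 were in all 6 lists and 397 in one. The private regions per library then numbered 42 and 58 without doxycycline, 54 and 81 with Myf6, and 45 and 117 with Myf6 and the compounds. With a −log10 q of at least 5, 270 regions were likewise in all 6 lists and 460 in one. The second +Myf6+F/R/C library had the most private regions at equal length too, but by a smaller margin than in the full lists.

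Of the 87 regions in 5 lists, 29 lacked a peak in the second +Myf6+F/R/C library, 27 in the first +Myf6 library and 18 in the first library without doxycycline. The 2 shortest lists and the shallowest library accounted for most of them. The first +Myf6+F/R/C library lacked 1, and the other 2 lacked 6 each.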

How the data were processed

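Peak lists were deposited per library, so the authors called replicates separately. Per the submitters' processing notes, MACS2, deepTools and DiffBind were used on GRCm39. For tool versions, aligner and duplicate handling the sources used here give nothing. Each line holds an interval, a summit offset, a score that was not used, the authors' ratio (fold enrichment at the summit), and the deposited −log10 p-value and −log10 q-value. No pair of lists was identical.

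The summit pileup k and expected pileup λ were solved from fold = (k + 1)/(λ + 1) and a Poisson tail, and matched the deposited −log10 p within 0.002 for 99.9% or more of the peaks in each list. The fragment length was the narrowest peak width, and the lowest λ gave the mean fragments per 10 kb. Expected pileups under 2 and above the lowest were whole fragments per 10 kb, to within 0.05. The recovery was tested on simulated data. The number of reads is not known, and libraries of different depth need not resolve peaks of the same strength. The lowest summit pileup was 5 fragments in the deepest IgG library and 3 in the shallowest.

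Intervals sharing at least 1 bp were merged over the 6 IgG lists. Groups came from the labels. Treatments were compared with two-sided exact permutation tests (SciPy 1.17.1, pandas 2.3.3) and a threshold of 0.05. Shares carry 95% Clopper-Pearson intervals, which treat regions as independent. The p-values measure only the spread between these samples, which may be technical. Regions named were the 10 in all lists with the best mean rank of fold, up to 3 in both lists of 1 treatment alone, the highest fold private to each list, the 3 widest, those nearest chromosome ends, and the richest unplaced sequence. The regions and lists were chosen with earlier results of these data known. Alternatives covered the q threshold, merging distance, placed chromosomes, list length, overlap, end margin, left-out replicates and a replicate block. Gene and locus lists and sequences need a GRCm39 annotation and were not used here, and neither were spike-in reads.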

Additional observations from a re-analysis of the deposited data

How the results depend on the processing

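The 303 regions in all 6 lists were 268 to 333 under every alternative run. With a −log10 q of at least 5, there were 460 single-list regions, 7.60% of regions were on unplaced sequences, 15.1% lay near a chromosome end, 52.1% had an H3K27me3 peak and 59.2% an HA peak without doxycycline, against 2571, 2.75%, 6.33%, 36.9% and 23.1%. At equal list length the values were 397, 8.42%, 15.7%, 52.5% and 63.1%. Merging up to 500 bp gave 2.16% unplaced, 5.20% near an end and 21.7% with HA, and placed chromosomes alone gave 21.3% with HA. Covering 50% of the region gave 33.7% for H3K27me3 and 20.9% for HA, a 3 Mb margin gave 10.5% near an end, and scaling to the shallowest depth, added after seeing the data, gave 24.8% for HA. Leaving out each replicate gave ranges of 1362 to 2564 single-list regions, 2.64% to 4.45%, 6.16% to 9.35%, 34.7% to 49.7% and 23.0% to 34.8%, with the highest share each time without the second +Myf6+F/R/C library. As log2 ratios, peaks of +Myf6 over no doxycycline turned to −0.099 with a −log10 q of at least 5 and ran from −0.49 to 0.66 without each replicate. Width of +Myf6+F/R/C over no doxycycline turned to 0.25 and ran from −0.15 to 0.031. Depth of +Myf6+F/R/C over +Myf6 ran from −0.78 to 0.43 and was 0.0040 without the second +Myf6 library, and the widths were 0.0093 without the first library without doxycycline and 0.031 without the first +Myf6+F/R/C library. Peaks were −0.063 without the first library without doxycycline and −0.49 without the second +Myf6 library. The difference in overlap between pairs of the same and of different treatments was 0.39 percentage points at equal length, 1.69 with a replicate block that keeps only pairs of different replicate number (31.4% against 29.7%, added after seeing the data, exact permutation p = 0.5, smallest possible 0.17), and −7.16 to 8.07 without each replicate, with 3.29 without the first +Myf6 library. The planned replicate block for this result compared replicate numbers in place of treatments and gave 4.11 points between the same and different numbers, which is another quantity. Replicate differences of the treatments correlated at −0.044, −0.052 and −0.13 over regions, so the labels' numbers were not taken to pair the samples. With 2 pairs the smallest p of the replicate block is 0.5, so neither it nor the crossed pairing of +Myf6 with +Myf6+F/R/C could make a call, and they say nothing about stability in the 9 treatment comparisons. The causes of these shifts were not tested, beyond the smaller number of peaks that the stricter settings leave.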
